A study of Gallus gallus with 6 samples.

Results

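CUBN, AMN, LRP2 and DAB2 encode the megalin-cubilin endocytic receptor complex, the machinery that epithelial cells use to take up vitamin carriers, lipoproteins and filtered proteins. The 4 genes were chosen by name from the authors' table of 8469 genes called between embryonic day (ED) 16 and ED19, of which 6460 carry a symbol, in a count table of 19219 genes. Membership of that table is itself a result of comparing ED16 with ED19, so the stage difference of these genes is described here and not tested. Because the rule took names, no gene stood just outside it.

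Megalin (LRP2) is a very large member of the low-density lipoprotein (LDL) receptor family, with a membrane-spanning segment and a cytoplasmic tail. Cubilin (CUBN) has no membrane-spanning segment and reaches the cell surface only together with amnionless (AMN), the small membrane protein that anchors it. Disabled-2 (DAB2) is a cytoplasmic adaptor that links the tail of megalin to clathrin. In mammals the receptors are best known from the proximal tubule of the kidney, the yolk sac and, for cubilin with amnionless, the intestine, where they take up vitamin B12 bound to intrinsic factor. DAB2 is more widely expressed and is also known from macrophages.

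RNA was sequenced from gradient-purified lymphocytes of the bursa of Fabricius, the cloacal organ in which chicken B-cells develop, of Hy-Line W-36 layer embryos, for which the labels list no treatment. There were 3 libraries at ED16 (ED16_1 to ED16_3) and 3 at ED19 (ED19_4 to ED19_6), each from its own pool of 52 to 55 bursas. The cells were not sorted by a B-cell marker, so any cell that passed the gradient is in the pool, and the stage means describe pools and not single embryos. The libraries held between 27087661 and 34614652 counts on genes, and a floor of 3 counts corresponded to between 0.0840 and 0.120 CPM (normalized counts scaled to a common library size). The mean RNA integrity number in the study's methods was lower at ED16 than at ED19, and its part in the differences below was not tested. Of 11 B-cell markers listed, the 5 with an identifier were expressed at both stages, the lowest mean RPKM being 6.35 for BACH2 at ED16. The RPKM of BLNK, an adaptor of the B-cell receptor, averaged 110.9 at ED16 and 280 at ED19.

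All 4 genes were higher at ED16 than at ED19, and in each of them the lowest ED16 library lay above the highest ED19 library. The fold differences ran from 8.97 for LRP2 to 92.0 for AMN. Expression is given as RPKM, the counts of a gene divided by its length and by the library total, a scale that allows genes of different length to be compared. Fold changes and their standard errors (SE) come from a negative binomial fit of the counts of all genes (edgeR, quasi-likelihood, TMM normalization), as log2 of ED16 over ED19.

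CUBN (ENSGALG00000008704) had 1188, 478 and 311 counts in ED16_1, ED16_2 and ED16_3, and 28, 39 and 21 counts in ED19_4, ED19_5 and ED19_6. Its RPKM was 3.09, 1.43 and 0.898 at ED16 against 0.0764, 0.121 and 0.0698 at ED19. ED16_1 was the highest library and the stages did not overlap, with the lowest ED16 library 8.13-fold above the highest ED19 library on normalized counts. Over the 3 pools of each stage the RPKM averaged 1.81 ± 1.14 (SD, n = 3) at ED16 against 0.0892 ± 0.0281 at ED19. This amounts to a log2 fold change of 4.39 (SE 0.50), or 20.9-fold.

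AMN (ENSGALG00000011391), the membrane anchor of cubilin, had 826, 219 and 172 counts in the ED16 libraries but only 7, 1 and 4 counts in the ED19 libraries. The RPKM was 12.7, 3.86 and 2.93 at ED16 against 0.113, 0.0183 and 0.0783 at ED19. ED16_1 again stood highest, and the lowest ED16 library was 29.4-fold above the highest ED19 library. The mean RPKM was 6.48 ± 5.37 (SD, n = 3) at ED16 against 0.0697 ± 0.0477 at ED19. Its log2 fold change of 6.52 (SE 0.79) was the largest of the 4, but it rests on 12 counts at ED19. On summed normalized counts the ED16 to ED19 ratio of AMN was 98.0, with an exact 95% interval of 55.9 to 190.2 that covers counting error only.

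LRP2 (ENSGALG00000010858), the endocytic receptor of the complex, had an RPKM of 1.67, 0.827 and 0.605 at ED16 and 0.137, 0.140 and 0.0821 at ED19. It kept the most counts of the 4 genes at ED19, with 69, 62 and 34. The stages were closest for this gene, yet the lowest ED16 library was still 4.73-fold above the highest ED19 library. Its mean RPKM was 1.03 ± 0.562 (SD, n = 3) at ED16 against 0.120 ± 0.0327 at ED19, and the log2 fold change was 3.17 (SE 0.41), or 8.97-fold.

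DAB2 (ENSGALG00000003803), the clathrin adaptor, had 456, 300 and 195 counts in the ED16 libraries against 31, 19 and 7 in the ED19 libraries. Its RPKM was 3.04, 2.30 and 1.44 at ED16 against 0.217, 0.151 and 0.0595 at ED19. DAB2 varied least between the ED16 libraries, and ED19_6 was its lowest library. The mean RPKM was 2.26 ± 0.798 (SD, n = 3) at ED16 against 0.143 ± 0.0790 at ED19. DAB2 thus had a log2 fold change of 4.03 (SE 0.44), or 16.3-fold.

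**Figure D1:**
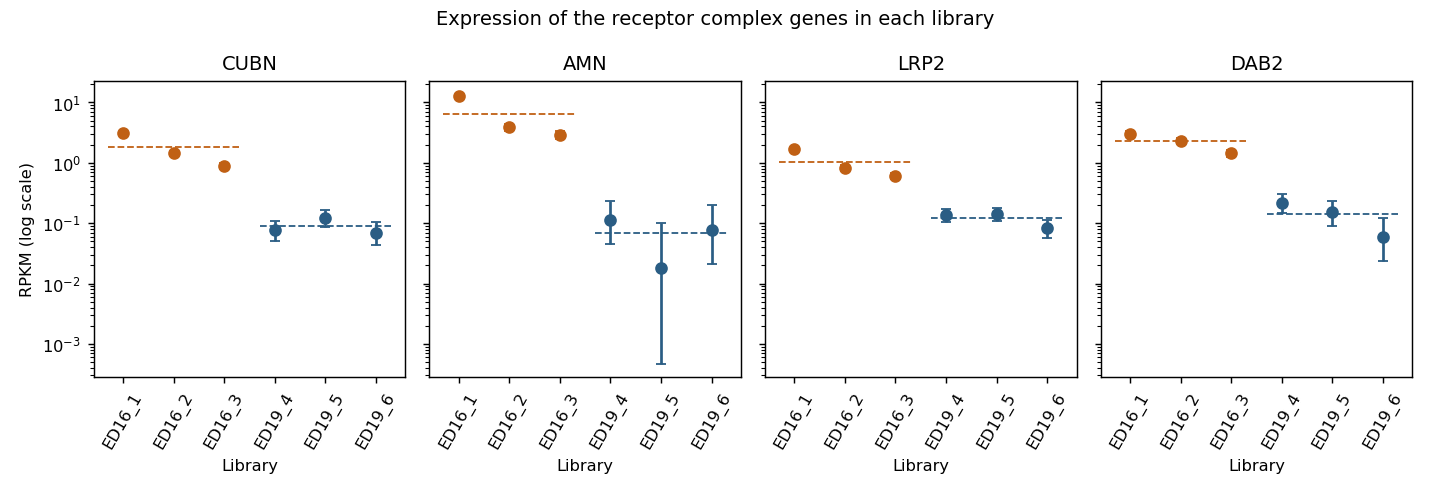
RPKM (log scale) of CUBN, AMN, LRP2 and DAB2 in each library, with exact 95% Poisson intervals for counting error and dashed lines at the mean of each stage. All ED16 points lie above all ED19 points, and the intervals are widest for AMN at ED19, where the libraries held 7, 1 and 4 counts.

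Of 13923 genes tested, 35.6% had an adjusted p-value below 0.05 and were higher at ED16, and all 4 receptor genes were among them, as the rule that chose them made likely. In 38.4% of tested genes the 3 ED16 libraries lay above the 3 ED19 libraries, and this too held for all 4. Nothing is read from these counts. By size, 309 tested genes had a higher log2 fold change than AMN, 812 than CUBN, 962 than DAB2 and 1368 than LRP2, which places LRP2 at percentile 90.2 and AMN at percentile 97.8. In bulk RNA, fewer cells of a type and less RNA per cell cannot be told apart.

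The size of the difference depended in part on ED16_1, most for AMN and least for DAB2. Without ED16_1 the log2 fold change was 3.75 for CUBN, 5.59 for AMN, 2.63 for LRP2 and 3.76 for DAB2. A correction of each library for gene length moved CUBN to 5.04 and LRP2 to 3.91, the longest genes of the complex.

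**Figure D2:**
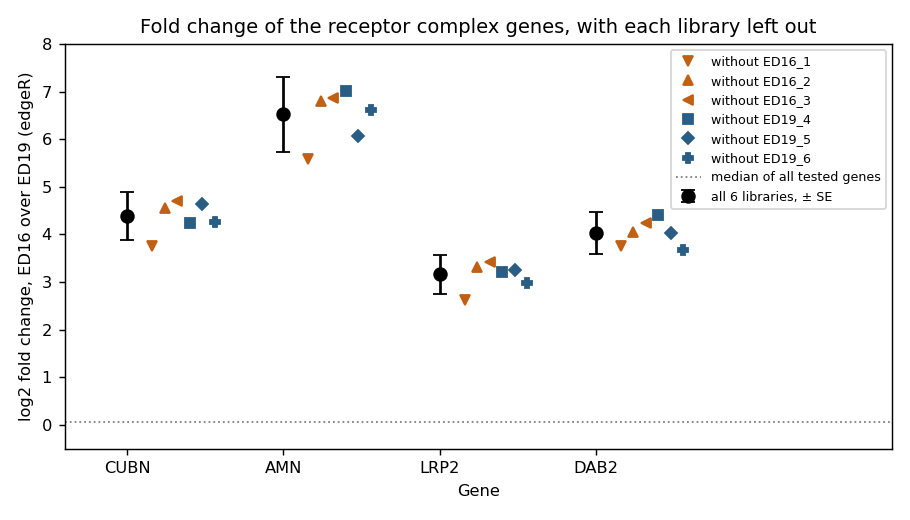
Log2 fold change (ED16 over ED19) of each gene with all 6 libraries (black, ± SE) and with each library left out (orange for an ED16 library, blue for an ED19 library); the dotted line is the median of all tested genes, 0.05. Leaving out ED16_1 gave the lowest value for CUBN, AMN and LRP2, and leaving out ED19_6 the lowest for DAB2, 3.67.

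The genes differ widely in length, which sets how many counts a given level yields. The length that the deposited counts and RPKM imply was 15285 bases for LRP2, 11114 for CUBN, 4340 for DAB2 and 1886 for AMN, the same value in every library. LRP2 therefore had more counts than AMN in each ED16 library while its RPKM was lower in each. The domains that the authors' table gives for CUBN and LRP2 include the EGF-like and calcium-binding EGF-like domains in both, CUB domains in CUBN and LDL receptor class A and class B repeats in LRP2. DAB2 was listed with a phosphotyrosine-binding domain, and AMN with no domain.

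At ED16 the order by mean RPKM was AMN, DAB2, CUBN and LRP2. AMN was the highest and LRP2 the lowest of the 4 in every ED16 library, although the means of neighbours in this order differed by less than the larger of their SDs. DAB2 and CUBN did not keep their order in all libraries, since in ED16_1 the RPKM of DAB2 was 0.983 times that of CUBN, with an exact 95% counting interval of 0.880 to 1.10. In ED16_2 and ED16_3 it was 1.61 times that of CUBN in both. Among all tested genes the mean RPKM of AMN at ED16 was at percentile 50.6, that of DAB2 at 32.1, that of CUBN at 28.8 and that of LRP2 at 20.6.

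At ED19 the order by mean RPKM was DAB2, LRP2, CUBN and AMN, and neighbours in that order differed by less than the larger of their SDs. All 4 lay between percentiles 7.64 and 10.9 of the tested genes. Their RPKM summed to 0.543, 0.432 and 0.290 in the ED19 libraries, against 20.4, 8.42 and 5.87 in the ED16 libraries.

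The proportions of the 4 transcripts differed between the stages mainly through AMN, which had 7, 1 and 4 counts in the ED19 libraries. Its share of the summed RPKM of the 4 genes was 61.9%, 45.9% and 49.8% in the ED16 libraries and 20.7%, 4.25% and 27.0% in the ED19 libraries. Relative to CUBN, the partner it anchors, the RPKM of AMN was 4.10, 2.70 and 3.26 times as high at ED16. At ED19 that ratio was 1.47, 0.151 and 1.12, and the exact 95% counting interval was 0.543 to 3.45 in ED19_4, 0.00373 to 0.893 in ED19_5 and 0.280 to 3.33 in ED19_6. The ratios of the stages did not overlap, but the intervals of ED19_4 and ED19_6 reach into the ED16 range.

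CUBN and LRP2 exchanged places between the stages. The RPKM of CUBN was 1.85, 1.73 and 1.49 times that of LRP2 at ED16, and 0.558, 0.865 and 0.849 times that of LRP2 at ED19. In every ED16 library the 95% counting interval of this ratio lay above 1, the lowest bound being 1.26 in ED16_3. At ED19 only the interval of ED19_4, 0.346 to 0.878, lay below 1. These ratios come from the contrast that chose the genes and are given without a test.

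**Figure D3:**
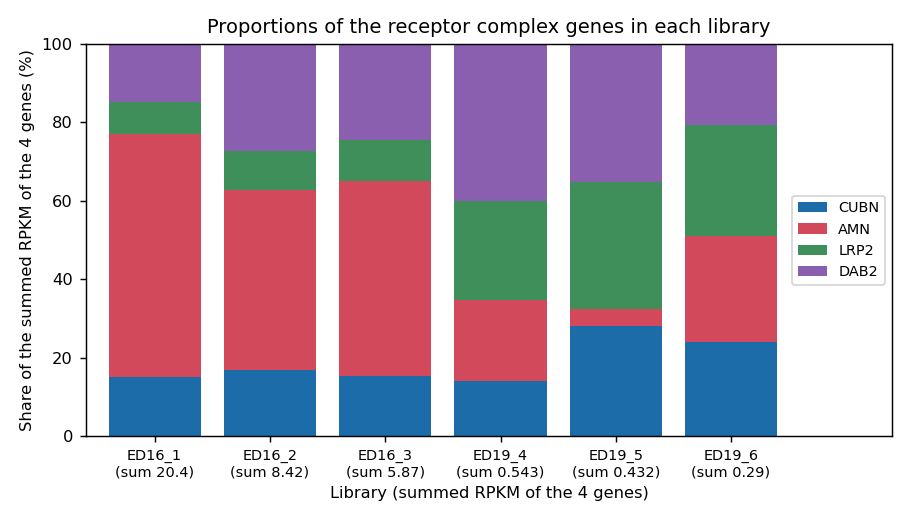
Share of each gene in the summed RPKM of the 4 genes, by library, with the sum itself under each bar. AMN takes from 45.9% to 61.9% at ED16 and from 4.25% to 27.0% at ED19, when the sum is below 0.6 RPKM in each library.

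Within ED16 the 4 genes fell in the same library order, highest in ED16_1 and lowest in ED16_3, an order that 23.6% of all tested genes also had. The size of the excess in ED16_1 was less common. Normalized counts of AMN in ED16_1 were 3.75 times the mean of the other ED16 libraries, a ratio that 0.158% of tested genes reached. For CUBN the ratio was 2.67 (0.855% of tested genes), for LRP2 2.35 (1.54%) and for DAB2 1.64 (6.13%), while the median tested gene had 0.993. ED19 showed no shared order, since ED19_5 was the highest library for CUBN and LRP2 and ED19_4 for AMN and DAB2.

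Markers of other cell types were set beside the stage difference and this pattern. Tested markers of the proximal tubule (19 of 20, median log2 fold change 5.99), erythroid cells (3 of 3, 4.70), epithelium (10 of 10, 4.52), fibroblasts (6 of 6, 4.17), macrophages and granulocytes (7 of 7, 2.79), endothelium (5 of 6, 2.32) and T-cells (7 of 7, 2.24) were higher at ED16, with 35.6% over all tested genes. Nearly all of these markers have an identifier because the authors had called them. Among all genes that passed the test, 53.6% were higher at ED16. B-cell markers went the other way, with 0 of 5 higher at ED16, 4 of 5 at ED19 and a median of -1.28. For other nephron segments 16 markers were listed and 2 had an identifier. These 2 were higher at ED16, with a median of 2.40. Of 30 listed markers of the kidney proximal tubule, 20 had an identifier and were tested, and 18 of them were highest in ED16_1, as were 34.1% of all tested genes. Their summed RPKM was 486, 236 and 176 in the ED16 libraries and 14.7, 16.4 and 17.9 in the ED19 libraries. Their ED16_1 excess had a median of 2.32 and ran from 0.664 for the water channel AQP1 to 3.38 for the peroxisomal oxidase PIPOX. CUBN, LRP2 and DAB2 lay within this wide range and AMN above it. The median tested gene, at 0.993, lay within it too, but only through AQP1. That gene had 15, 17 and 23 counts in the ED16 libraries, and the next lowest marker was CALB1, at 1.01. By this measure 10 epithelial markers had a median of 1.85 and a lowest value of 1.56, for EPCAM, so DAB2 lay near their lower end and the other 3 genes above their median. Macrophage and granulocyte markers (7 tested) ran from 0.520 to 1.18, fibroblast markers (6 tested) from 0.830 to 1.40 and B-cell markers (5 tested) from 0.782 to 1.04, all below each of the 4 genes. Among the ED16 libraries, 6 of the 7 macrophage and granulocyte markers were lowest in ED16_3, and CTSK was lowest in ED16_1. All 4 receptor genes were lowest in ED16_3 too. So was the summed RPKM of the T-cell markers (334, 361 and 281) and of the erythroid markers (2389, 2209 and 1774). That of the B-cell markers (281, 305 and 293) was lowest in ED16_1. The share of all tested genes lowest in ED16_3 was not computed, so nothing is read from this order. All 7 macrophage and granulocyte markers summed to 99.3, 127 and 128 RPKM in the ED16 libraries, lowest in ED16_1. Without CTSK, left out after its values were seen, these markers summed to 63.6, 68.7 and 48.8 RPKM in the ED16 libraries. In the ED19 libraries the sum was 17.3, 13.7 and 13.3. Whether RNA of kidney, epithelial or other cells had a part in the excess or in the stage difference was not tested.

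**Figure D4:**
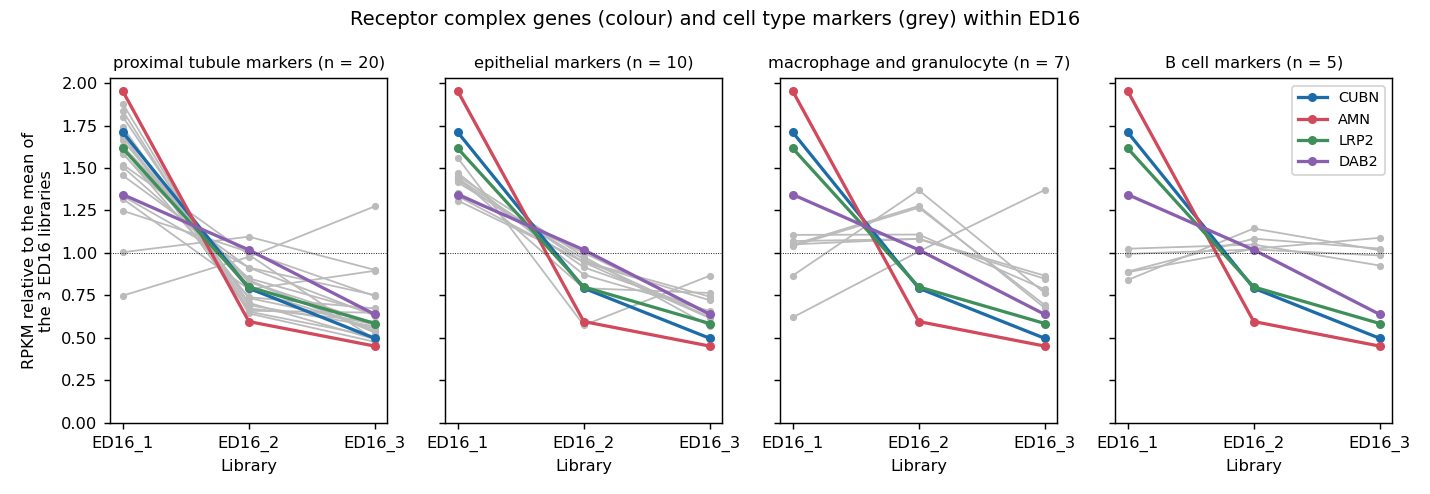
RPKM in ED16_1, ED16_2 and ED16_3 relative to the mean of the 3 libraries, for the 4 receptor genes (colour, repeated in each panel) and for the tested markers of 4 cell types (grey); a line joins the values of 1 gene and libraries have no order. The excess of CUBN, LRP2 and DAB2 in ED16_1 lies within the range of the proximal tubule markers and that of AMN above it. On normalized counts that range is wide, and it holds the median tested gene only through AQP1, which had 15, 17 and 23 counts. Macrophage and B-cell markers show no excess in ED16_1 of the size seen in the 4 genes.

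Relative to the proximal tubule markers, LRP2 was nearly constant within ED16, at 0.344%, 0.350% and 0.344% of their summed RPKM. CUBN was at 0.635%, 0.605% and 0.511%, DAB2 at 0.624%, 0.973% and 0.820%, and AMN at 2.60%, 1.63% and 1.66%. At ED19 the value of LRP2 was 0.932%, 0.858% and 0.458%, above each ED16 library, although only 34 counts lie behind the last value. AMN was lower in each ED19 library than in any ED16 library, with 0.766%, 0.112% and 0.436%, while the stages overlapped for CUBN and DAB2. Much of the marker sum at ED19 came from FBP1 and ASS1, enzymes of gluconeogenesis and of arginine synthesis, with a mean RPKM of 6.94 and 3.09. AGXT, PIPOX and ENPEP, an aminotransferase, an oxidase and an aminopeptidase of the tubule, had no count in any ED19 library.

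The tubule markers themselves differed widely in how much was left at ED19. Of the 20 markers, 13 had a higher log2 fold change than LRP2 and 7 a lower one, and the numbers were 12 and 8 for CUBN, 12 and 8 for DAB2 and 9 and 11 for AMN. SLC34A1, the sodium-phosphate cotransporter, had 7760, 2620 and 2403 counts in the ED16 libraries against 0, 3 and 0 in the ED19 libraries, in which LRP2 had 69, 62 and 34. At the other end were the amino acid transporter subunit SLC3A1, with 141, 115 and 88 counts in the ED19 libraries and a log2 fold change of 1.02, and the bicarbonate cotransporter SLC4A4, with 184, 178 and 143 counts and 0.70. CALB1, a calcium-binding protein, was higher at ED19, with a log2 fold change of -1.59. The changes of the 4 receptor genes lay inside the range of these markers. That range was wide, from -1.59 to 13.3, so little is read from it. It holds the all-gene median of 0.05 only through CALB1, and the next lowest marker was SLC4A4 at 0.70.

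Epithelial markers did remain at ED19, at a low level. The 11 with an identifier, among them the claudin CLDN3, the keratins KRT19 and KRT8 and the cadherin CDH1, summed to an RPKM of 282, 184 and 129 at ED16 and 6.08, 5.63 and 4.95 at ED19. LRP2 amounted to 0.592%, 0.450% and 0.468% of that sum at ED16 and to 2.25%, 2.49% and 1.66% at ED19. CUBN amounted to 1.09%, 0.779% and 0.695% at ED16 and 1.26%, 2.16% and 1.41% at ED19. Relative to these markers, the lowest ED19 value of CUBN and of LRP2 thus lay above the highest ED16 value. For CUBN the gap was small, 1.26% against 1.09%, and 28 counts lie behind the ED19_4 value. The stages overlapped for DAB2, with 1.08%, 1.25% and 1.12% at ED16 and 3.56%, 2.69% and 1.20% at ED19. For AMN the order was the opposite, with 4.48%, 2.10% and 2.27% at ED16 and 1.85%, 0.326% and 1.58% at ED19, although 12 counts lie behind the latter.

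**Figure D5:**
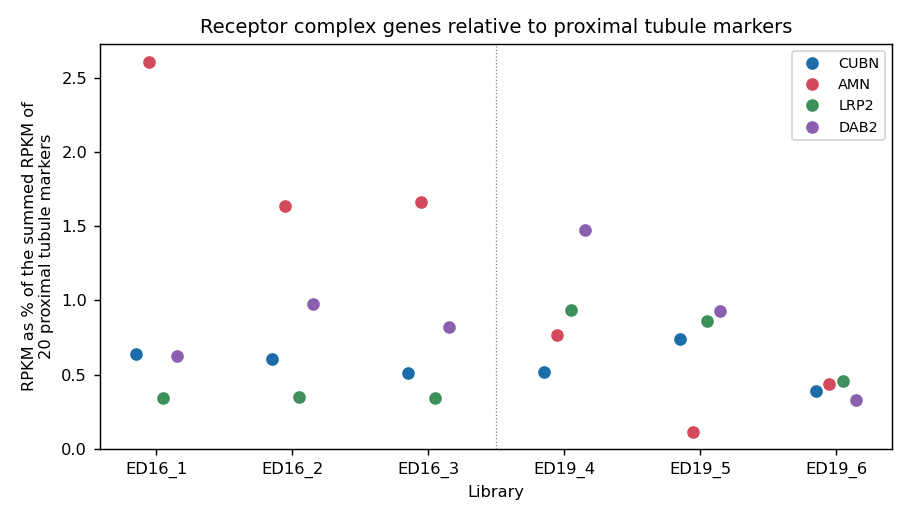
RPKM of each receptor gene as a percentage of the summed RPKM of 20 proximal tubule markers, by library, with ED16 left and ED19 right of the dotted line. LRP2 sits at 0.344% to 0.350% in the ED16 libraries and at 0.458% to 0.932% in the ED19 libraries, and AMN is lower in every ED19 library.

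The chromosomal neighbours of the 4 genes were looked up in the RefSeq annotation of GRCg7b, a later assembly than the galGal4 used for the counts, which serves here only for gene order. Of 24 protein-coding neighbours, 3 on each side of each gene, 11 had an identifier. Of these, 9 were higher at ED19 and 2 at ED16, against 30.8% and 35.6% of all tested genes, and all 11 are genes that the authors had called. TRAF3 and CDC42BPB, a signaling adaptor and a kinase that flank AMN directly, had log2 fold changes of -1.75 (SE 0.41) and -0.94 (SE 0.17). TNFAIP2 and EXOC3L4, both further along on the same side as CDC42BPB, had log2 fold changes of 3.23 and 3.88. TRDMT1, next to CUBN, had -0.88, and PRKAA1, the third gene on one side of DAB2, had -1.55. The other neighbours with an identifier were RCOR1 near AMN (-1.92), BBS5, ABCB11 and G6PC2 near LRP2 (-1.26, -0.99, -1.30) and RICTOR near DAB2 (-2.55). Neighbours without an identifier, among them RSU1 next to CUBN and FYB1 and PTGER4 next to DAB2, were not analysed. Nothing is read from the counts by direction.

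Partners of the complex moved in both directions. Of 16 listed proteins that act with the receptors on their endocytic route, 7 had an identifier, and 3 were higher at ED16 and 4 at ED19, with a median log2 fold change of -0.998 against 0.05 over all tested genes (35.6% of which were higher at ED16 and 30.8% at ED19). Identifiers exist almost only for genes that the authors had called, so for this list and those that follow nearly every gene passed the test and the counts tell direction only. The share set beside each of these counts is 53.6%, the part of all passing genes that were higher at ED16. The authors' called genes, the source of nearly all identifiers, are another set, and their share was not computed here. PDZK1, a scaffold that holds transporters and receptors at the apical membrane, had a log2 fold change of 2.51 (SE 0.44) and 2.39 times more normalized counts in ED16_1 than in the other ED16 libraries. The related scaffold SLC9A3R1 (log2 fold change 1.23) and MYO6, the motor that moves endocytic vesicles inward (1.38), were higher at ED16 as well. LRPAP1, the chaperone that megalin needs to fold, had a log2 fold change of -0.998 (SE 0.15), opposite to the receptor itself. Its RPKM averaged 39.4 at ED16 and 80.8 at ED19, far above that of LRP2 at either stage. RAB5A, the small GTPase of early endosomes, the endosomal adaptor APPL1 and the lysosomal cobalamin exporter LMBRD1 had log2 fold changes of -1.13, -2.18 and -1.49.

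Other LDL receptor family genes moved in both directions. Of 13 listed, 7 had an identifier under the listed symbol. Of these, 2 were higher at ED16, 4 were higher at ED19 and 1 did not pass the test. A gene named VLDL by the authors carries LDL receptor class A repeats and was not matched to the listed VLDLR. Its log2 fold change was -0.70 (SE 0.19). The endocytic receptor LRP1 and LRP4, a coreceptor at the neuromuscular junction, had log2 fold changes of 1.70 (SE 0.44) and 1.72 (SE 0.45), both smaller than that of LRP2, 3.17. LRP3, LRP8, LRP12 and the Wnt coreceptor LRP6 had -1.29, -1.18, -1.49 and -1.26. LRP5, whose identifier does not come from the table of called genes, had -0.08 (adjusted p = 0.798 from edgeR's quasi-likelihood test). At ED19 the mean RPKM of LRP3 was 49.9 and that of LRP12 9.26, against 0.120 for LRP2. The ED16_1 excess of the 7 matched family genes ran from 0.623 to 1.28, below the 2.35 of LRP2.

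The paralog of DAB2 was likewise higher in every ED16 library than at ED19. DAB1, the adaptor of reelin signaling, had 161, 86 and 56 counts in the ED16 libraries against 13, 16 and 5 in the ED19 libraries, a log2 fold change of 3.08 (SE 0.48). Of the 4 endocytic adaptors with a phosphotyrosine-binding domain that were listed and measured, DAB1, NUMB (0.99) and GULP1 (3.45) were higher at ED16 and APPL1 was higher at ED19. Across the authors' table, 27 genes carry this domain, of which 20 were higher at ED16 and 7 at ED19, with DAB2 counted among the former. CUB domains are listed for 27 genes, of which 26 were tested, with 18 higher at ED16 and a median log2 fold change of 1.65. LDL receptor class A repeats are listed for 16 genes, with 10 higher at ED16 and a median of 1.27. Calcium-binding EGF-like domains, listed for CUBN and LRP2, are given for 64 genes. Of the 59 tested, 52 were higher at ED16 and 7 at ED19, with a median of 2.97. Among all genes that passed the test, 53.6% were higher at ED16. These domain genes were all called by the authors and include the receptor genes, so nothing is read from the counts.

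The clathrin coat, to which DAB2 links the receptors, was expressed at both stages and moved in both directions. Of 32 listed coat genes, 17 had an identifier, 6 higher at ED16 and 11 at ED19, with a median log2 fold change of -1.11. The adaptor subunit AP2S1, the epsin EPN3, the dynamin DNM2 and HIP1 had log2 fold changes of 1.17, 1.06, 0.72 and 0.92. EPS15, ITSN2, AP2A2 and SNAP91 had -2.04, -1.53, -0.67 and -1.62. The mean RPKM of EPS15, a scaffold of the coated pit, was 36.7 at ED16 and 158 at ED19.

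Most of the ligands that could be tested were higher at ED16. Of 24 listed proteins that bind megalin or cubilin, 16 had an identifier and 14 were tested. Of these, 13 were higher at ED16, with a median log2 fold change of 2.96, against 53.6% of all genes that passed the test. The ligands have identifiers because the authors had called them, so little is read from the count. APOA1, an apolipoprotein that cubilin takes up, had an RPKM of 517, 196 and 174 in the ED16 libraries against 19.7 to 43.7 in the ED19 libraries. Its log2 fold change was 3.42 (SE 0.54) and its ED16_1 excess was 2.80. CALR, TF and SERPING1 had smaller ED16_1 excesses, of 1.27, 1.04 and 1.40, and log2 fold changes of 0.64, 0.83 and 2.51. PLAU, the urokinase plasminogen activator, was the exception, with a log2 fold change of -0.85. GC, the vitamin D carrier and a classical cargo of megalin, was chosen after its values were seen. Its counts were 77, 37 and 21 in the ED16 libraries and 0 in each ED19 library. GIF, the intrinsic factor that cubilin binds, likewise chosen, had 14, 13 and 15 counts in the ED16 libraries against 2, 1 and 0 in the ED19 libraries, with no excess in ED16_1.

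Genes that handle vitamin B12 and vitamin D after uptake moved in both directions. Of 16 listed, 7 had an identifier, 3 higher at ED16 and 4 at ED19. TCN2, the plasma carrier of vitamin B12, had a log2 fold change of 1.70 (SE 0.27) and ABCD4, a lysosomal transporter, 0.94 (SE 0.22). CYP24A1, the enzyme that inactivates vitamin D, had 277, 300 and 197 counts in the ED16 libraries and 0 in each ED19 library, and ED16_1 was not its highest library. The intracellular cobalamin enzymes and chaperone MTR, MTRR and MMADHC had log2 fold changes of -1.71, -0.95 and -0.73.

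Among transcription factors known in mammals to act in the proximal tubule or on these promoters, most that could be tested were higher at ED16. Of 19 listed, 9 had an identifier and 8 were tested, 7 higher at ED16 with a median log2 fold change of 2.88. Among all genes that passed the test the share was 53.6%, and these factors too have identifiers because the authors had called them. PAX2, a factor of the developing nephron, had 113, 75 and 36 counts in the ED16 libraries against 1, 0 and 0 in the ED19 libraries. The ED16_1 excess of PAX2 was 1.81, between those of DAB2 and LRP2. The nuclear receptors RXRA and RARA had log2 fold changes of 3.21 and 1.29, and ESRRG, an orphan nuclear receptor, -1.17.

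The genes with the most similar profile over the 6 libraries were found by the root mean square difference of log2(CPM + 0.5) after each gene's mean was subtracted, among 6120 other tested genes with a symbol. The pseudocount compresses differences at low counts, so genes with unlike fold changes can rank as near, and the measure is a description. For CUBN the nearest genes were the monooxygenase FMO4 (0.124), the keratin KRT15 (0.145) and TINAG, a basement membrane protein (0.172). The nearest genes of AMN were the membrane peptidase XPNPEP2 (0.131), GAMT, which makes creatine (0.132), and SLC6A19, a neutral amino acid transporter (0.185). LRP2 was nearest to the matrix protein OLFML2B (0.0582), the membrane metalloprotease MMP17 (0.103) and the chloride channel protein CLIC3 (0.145). DAB2 was nearest to the homeobox factor MEIS1 (0.134), the neurotrophin receptor NGFR (0.144) and GPRC5C, an orphan receptor (0.156). Against a log2 fold change of 4.39 for CUBN, FMO4, KRT15 and TINAG had 6.23, 4.91 and 10.8, and TINAG had no count at ED19. Against 3.17 for LRP2, its near genes had 4.97, 4.57 and 4.28 in the order given. For AMN, at 6.52, the values were 4.88, 6.03 and 6.79. For DAB2, at 4.03, they were 3.89, 3.63 and 4.01.

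By this measure CUBN and AMN were nearest to each other among the 4 genes, as were LRP2 and DAB2. CUBN and AMN differed by 0.375, which made CUBN rank 29 of 6120 for AMN and AMN rank 69 for CUBN. LRP2 and DAB2 differed by 0.330, which made LRP2 rank 103 for DAB2 and DAB2 rank 158 for LRP2. The margin was small for CUBN, which differed from DAB2 by 0.419, and AMN and LRP2 were the least alike, with a difference of 0.734. The pseudocount bears on these differences as well, since AMN had 12 counts at ED19.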

How the data were processed

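The members and gene lists were chosen with earlier results of these data known. The authors aligned reads to galGal4 with TopHat 2.0.12 and deposited raw counts per gene from HTSeq, and RPKM values computed from these counts. RPKM equals the count divided by gene length and library total. A deposited table of called genes gave the gene symbols. It also holds the authors' normalized mean signal per stage, log2 fold changes and p-values from DESeq, none of which was used. The counting is not stated to use strand, so reads of overlapping genes cannot be told apart. Sequences of the genes were not used here, so the comparison with protein length and the promoter motifs of the design were not run.

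Counts were fitted in edgeR 4.0.16 (R 4.3.3) with filterByExpr, TMM and the quasi-likelihood F test, ED16 against ED19, with Benjamini-Hochberg adjustment over 13923 genes and a threshold of 0.05. The SE is the log2 fold change divided by the square root of F. Library totals and the floor are given with the data, and intervals cover counting error only. Replicates are separate pools of embryos. Genes named are the 4 members, at most 4 per list and direction by mean RPKM, and 3 nearest profiles per member, with exceptions stated. Some genes that this rule names are not reported here. Alternatives were upper-quartile normalization, library totals only, a fit of all genes, a minimum of 10 counts in every library, DESeq2 1.42.0, limma 3.58.1 on log2(RPKM + 1) and log2(RPKM + 0.1), a loess length correction (span 0.5), leaving out each library and a minimum fold change of 2. The edgeR fit was tested on simulated data.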

Additional observations from a re-analysis of the deposited data

How the results depend on the processing

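The 4 log2 fold changes stayed above 0 under every alternative that gave a value. With counts in place of RPKM, which leaves gene length in, the mean ratio of AMN to CUBN at ED16 went from 3.35 to 0.569 and that of DAB2 to CUBN from 1.40 to 0.546, so the order of these genes turned round. A minimum of 10 counts in every library left AMN and DAB2 without a value. In limma on log2(RPKM + 1) the pseudocount exceeds every ED19 value of the 4 genes, the highest being 0.217 for DAB2 in ED19_4. The differences were then 1.29 for CUBN, 2.58 for AMN, 0.83 for LRP2 and 1.48 for DAB2. With log2(RPKM + 0.1) they were 3.17, 5.02, 2.27 and 3.28. Upper-quartile normalization moved the all-gene median (log2) from 0.05 to 0.26. Leaving out each library gave 3.75 to 4.70 for CUBN, 5.59 to 7.01 for AMN, 2.63 to 3.42 for LRP2 and 3.67 to 4.40 for DAB2. Genes higher at ED16 numbered 3556 to 5793 over the alternatives. Those higher at ED19 numbered 2502 (minimum fold change of 2, which drops small changes) to 5156 (without ED19_6). Of 448 list counts, 438 stayed within 1.5 times. No paired analysis was possible because the stages share no replicate number. At ED19, depth limits AMN most, with 1 count in ED19_5.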
